A study of Mus musculus with 14 samples.

Results

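The 8 genes described here encode the hyaluronan receptors Lyve1 and Cd44, the hyaluronan synthases Has1, Has2 and Has3, the hyaluronidases Hyal1 and Hyal2, and versican (Vcan), a proteoglycan that binds hyaluronan. They were chosen by name among 34741 genes on the array, and all 8 were found, with 13 probes between them. A gene was read from its probe with the highest mean log2 signal over the 14 arrays, whatever the group.

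Lymphatic endothelial cells were taken from lymph nodes in mice of the C57Bl/6 strain, and the question was how cells lining the subcapsular sinus, where afferent lymph enters, differ from those of the lymphatic medullary sinus on the efferent side. No treatment, mutation or age is given in the labels for any group. Laser-capture microdissection (LCM) gave 5 samples of each sinus, with 50 cells each cut from frozen sections of inguinal, axillary and brachial nodes on the basis of CD31, an endothelial surface protein, with F4/80, a macrophage protein, stained beside it. Fluorescence-activated cell sorting (FACS) gave 2 samples of each sinus, with 1200 cells each sorted from digested nodes of many sites with a lineage antibody cocktail against T cell, B cell, myeloid and erythroid antigens, antibodies to CD73 and podoplanin and the dead-cell dye 7-AAD. After SuperAmp amplification and Cy3 labelling, each sample went onto 1 Agilent array. The titles call the samples biological replicates but do not tie them to animals, so p-values measure the spread between these samples. They are too small if samples of the same sinus share an animal, and sharing across sinuses was not modelled in the main fits.

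Hyaluronan is a long sugar polymer of the extracellular matrix, made at the plasma membrane by the HAS enzymes and extruded from the cell. Tissue hyaluronan leaves largely through lymph and is degraded in lymph nodes and liver, where cell surface receptors take it up and hyaluronidases cut it. LYVE-1 is the hyaluronan receptor commonly used to mark lymphatic endothelium, although some macrophages carry it too, whereas CD44 is found on many cell types, leukocytes among them.

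Each probe is a stretch of 60 bases, and Cd44 and Vcan were read at several places in their transcripts, with results that depended on the place. The probe sequences are therefore shown here, 5′ to 3′ on the strand of the transcript, with mm9 coordinates from the scanner files. All of these probes map to the minus strand. The 4 Cd44 probes lie on chromosome 2 and are listed by their start in the transcript NM_009851. The 3 upstream ones are given whole and the last, which starts past the stop codon in the 3′ untranslated region, by its first 30 bases. Capitals mark the stop codon, which begins at base 46 of the probe that holds it, so the first 2 probes read the coding sequence ahead of it.
Cd44 A_55_P2166488 (base 1777, chr2:102677971-102678030): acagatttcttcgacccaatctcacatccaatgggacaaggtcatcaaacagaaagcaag
Cd44 A_55_P2166486 (base 1965, chr2:102672645-102672704): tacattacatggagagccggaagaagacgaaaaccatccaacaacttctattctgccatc
Cd44 A_55_P2166501 (base 2614, chr2:102654278-102654337): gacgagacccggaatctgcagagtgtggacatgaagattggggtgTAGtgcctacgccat
Cd44 A_55_P2064043 (base 5494, chr2:102651398-102651457): tcagaggcagctggcatcctttgttttgtt

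The other sequences, each shown by its first 30 bases, belong to Lyve1, the gene named first, and to the 3 probes of Vcan, whose listed transcripts overlap in part. The first Vcan probe is listed for NM_172955 and 3 other RefSeq transcripts, and the second for NM_172955 and no other RefSeq transcript. The third is listed for NM_001081249 and the same 3 others as the first. Exon and untranslated-region annotation for these probes was not used here.
Lyve1 A_52_P686785 (base 2497 of NM_053247, chr7:117994171-117994230): cactttgtgtgcctttaacaaatacattat
Vcan A_55_P1960208 (base 1428, chr13:89851810-89851869): ttgagaaccagacatgcttccctctccctg
Vcan A_52_P1044655 (base 3166, chr13:89850072-89850131): cggcaggctttaggttgtctatgtaaatga
Vcan A_55_P1960202 (base 12207, chr13:89795080-89795139): ttcatcctaatgtgtactagagcacagaaa

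Every value below is a log2 signal over the 75th percentile of its array, so a value of 0 is the brightness at that percentile and a step of 1 is a doubling. Differences are medullary minus subcapsular on that log2 scale, from limma, and calls were made where the p adjusted by Benjamini-Hochberg over all genes tested was under 0.05. A probe that the scanner software did not mark as well above background has only a bound, and levels of different probes are not compared.

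The arrays differed in quality and content, and so did the groups. Between 50.78 and 69.03% of probes passed the background call on a subcapsular LCM array, 67.36 to 75.32% on a medullary LCM array and 66.29 to 78.97% on a FACS array. Of the defining lymphatic markers, Prox1 was above background on all 14 arrays, whereas Pdpn, the gene of the podoplanin used for sorting, was above it on 1 of 5 subcapsular and 4 of 5 medullary LCM arrays and on 1 of 2 and 2 of 2 FACS arrays. Flt4 was above it on 3 of 5 arrays of each sinus in LCM, and on 0 of 2 subcapsular and 1 of 2 medullary arrays in FACS. Pecam1, which encodes CD31, averaged 4.18 to 4.82 in the other 3 groups and -3.6 ± 0.33 (SD, n = 2) in the medullary FACS samples. Prox1 (-0.81 ± 0.6) and Pdpn (-0.92 ± 0.87) instead had their highest group means in those 2 samples, so the defining genes did not move together. Of all 14 lymphatic markers, 7 to 8 were above background on a medullary FACS array and 11 on each subcapsular FACS array. Cdh5, Mmrn1, Ackr4 and Sox18 were above it on 0 of 2 medullary and 2 of 2 subcapsular FACS arrays. Reln went the other way, with 2 of 2 and 1 of 2. Adgre1 (which encodes F4/80), Csf1r, Ptprc, Cd3e and Cd79a, markers of macrophages and other leukocytes, were above background on all 14 arrays. Of 10 fibroblastic reticular and mural cell markers, 5 to 8 were above it on a subcapsular and 7 to 10 on a medullary LCM array. On FACS arrays the counts were 6 to 8 and 7 to 10. Dcn and Col3a1 were above it on all 14 arrays, but Pdgfrb only on 1 of 5 medullary LCM and 1 of 2 medullary FACS arrays. In such bulk samples fewer cells of a type and less RNA per cell cannot be told apart. The scan positions add a limit. On slide 1 were medullary LCM replicates 1 to 3 and all 5 subcapsular LCM arrays, and the rest were on slide 2. On slide 1, subcapsular LCM replicates 1 to 4 were in row 1. Subcapsular replicate 5 and the medullary replicates were in row 2, so sinus and row nearly coincide there. In FACS the sinuses were in different rows, and sinus and row cannot be told apart.

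None of the 8 genes was called in any of the 4 comparisons at the settings used throughout. In LCM, 6 of the 8 were bright enough to enter, 0 were called and 1, Cd44, had an unadjusted p under 0.05. The background was 0.175% of 27356 genes called and 11.7% at an unadjusted p under 0.05. In FACS, 6 entered, 0 were called and 2, Hyal1 and Vcan, had an unadjusted p under 0.05, with 0% of 27639 genes called and 31.9% (8815) at an unadjusted p under 0.05. These counts of 1 and 2 genes at an unadjusted p are thus near what all genes gave. Has3 was too dim for every comparison, Hyal1 for LCM and Lyve1 for FACS.

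**Figure D1:**
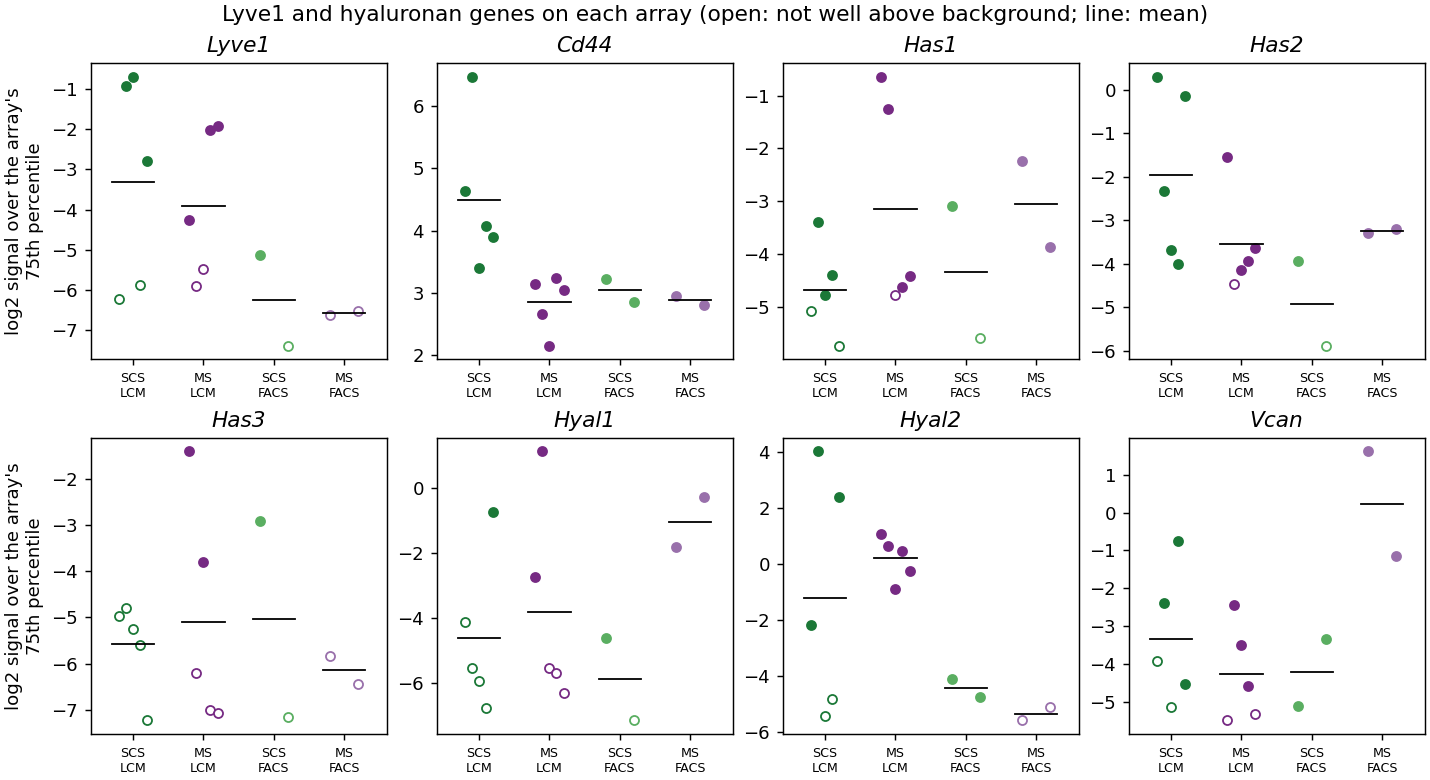
Log2 signal over the array's 75th percentile (vertical axes, scaled for each gene) for the 8 genes in the subcapsular (SCS) and medullary (MS) samples of LCM and FACS, 1 point per array and a line at each group mean. Open points are not well above background. Cd44 is filled on all 14 arrays, its 5 subcapsular LCM values (3.4 to 6.47) lie above its 5 medullary ones (2.15 to 3.24), and Lyve1 is filled on 7 arrays.

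Lyve1 was measured unevenly, with large differences between samples of the same sinus. In the 5 subcapsular LCM samples its level was -6.23, -0.93, -0.69, -5.88 and -2.79, and the first and the fourth were not above background. In the 5 medullary LCM samples it was -4.25, -5.9, -5.47, -2.02 and -1.93, and the second and the third were not above background. Each sinus thus held high and low samples, and the 2 groups overlapped over most of their range. By FACS, Lyve1 was -5.13 and -7.39 in the subcapsular samples, where only the first was above background, and -6.63 and -6.52 in the medullary samples, where neither was.

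The order of the Lyve1 means was subcapsular LCM (-3.3 ± 2.64, SD, n = 5), medullary LCM (-3.91 ± 1.87, n = 5), subcapsular FACS (-6.26 ± 1.6, n = 2) and medullary FACS (-6.57 ± 0.08, n = 2). No 2 neighbours in that order differed by more than their spread, since each pair overlapped. The LCM difference was -0.61 (SE 1.31, 95% interval -3.5 to 2.28), with a limma adjusted p of 0.887 and a two-sided exact permutation p of 0.683. The interval is wide, so equal levels are not shown. The direction changed under 3 alternatives. The difference was 0.12 when the percentile was taken over probes above background on all arrays, 0.06 with the slide row as a block, and 0.04 without subcapsular LCM replicate 3, whereas quantile normalization (-1.06) and the authors' deposited log2 table (-1.01) kept it.

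Cd44, the broad hyaluronan receptor that also serves in leukocyte adhesion, was well above background on all 14 arrays. Its level was 4.64, 6.47, 3.4, 4.08 and 3.9 in the subcapsular LCM samples. It was 3.15, 2.66, 2.15, 3.24 and 3.05 in the medullary LCM samples. All 5 subcapsular values thus lay above all 5 medullary ones, and the second subcapsular sample was the highest. By FACS the levels were 3.22 and 2.86 in the subcapsular and 2.95 and 2.81 in the medullary samples, which overlapped with each other and lay within the range of the medullary LCM samples.

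The Cd44 group means were 4.5 ± 1.19 in subcapsular LCM, 3.04 ± 0.26 in subcapsular FACS, 2.88 ± 0.1 in medullary FACS and 2.85 ± 0.45 in medullary LCM samples. In LCM the difference was -1.65 (SE 0.63, 95% interval -3.03 to -0.26), with an unadjusted limma p of 0.0239 and an adjusted p of 0.362. The exact two-sided permutation p for this gene alone was 0.00794, the smallest that 5 against 5 samples can give. Of the 6 genes tested, Cd44 was the only one whose LCM groups did not overlap, against 3.09% of all genes tested. In FACS the difference was -0.16 (SE 0.57, 95% interval -1.74 to 1.41, limma adjusted p 0.842), and the 2 differences were not shown to differ, with an interaction of 1.48 (SE 0.94, limma adjusted p 0.365).

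The macrophage markers moved with Cd44 in LCM. The summed level of 15 macrophage markers was 633 to 2410 in the subcapsular LCM samples and 383 to 547 in the medullary ones, on a linear scale where 1 is the 75th percentile of the array. Such sums, here and below, weigh the brightest probes most. For macrophages these were Itgam (log2 means 8.78 and 8.39) and Marco (8.38 and 6.24). All 14 markers tested were lower in the medullary sinus, 0 of them called and 7 at an unadjusted limma p under 0.05. The lymphocyte markers were mixed: their sum was 136 to 286 against 96.6 to 137, with 6 of 10 lower in the medullary sinus and the T cell genes Cd3d, Cd3e, Cd3g and Lck higher, and 0 called (limma, 4 at an unadjusted p under 0.05). The highest Cd44 value came from the array with the lowest share of probes above background, 50.78%, and without that sample the difference was -1.15. On slide 1 alone, where sinus and row nearly coincide, the difference was -1.85. With the slide row as a block it was -1.41 (limma adjusted p 0.649), and quantile normalization gave -0.73. The part of the macrophage and lymphocyte signal and of array quality in the Cd44 difference was not tested.

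The Cd44 probes gave different answers. The coding probe from base 1965, above background on 11 of 14 arrays, ran the other way: its level was -3.37, -3.57, -4.28, -4.82 and -4.77 in subcapsular LCM samples and -1.3, -1.11, 0.3, -0.1 and -4.51 in medullary ones. Of the medullary samples, 4 of 5 were thus above every subcapsular one, and the difference was 2.82 (SE 0.87, unadjusted limma p 0.00795, adjusted p 0.27). The probe over the stop codon, above background on all 14 arrays, was -3.31, 5.2, 3.65, 3.21 and 3.22 in subcapsular LCM samples and 2.61, 2.46, 3.14, 1.52 and 3.67 in medullary ones. On this probe the first subcapsular sample was far below the rest, and the difference was 0.29 (SE 1.36, limma adjusted p 0.957). The probe from base 1777, above background on 7 arrays, had a difference of -2.15 (SE 1.16, limma adjusted p 0.505). In FACS the stop codon probe gave -2.25 (SE 1.03, limma adjusted p 0.207) and the probe from base 1965 gave 2.15 (SE 1.74, limma adjusted p 0.4). Whether every Cd44 transcript holds the probes from bases 1777 and 1965 was not examined. The 2 probes above background on all 14 arrays gave LCM differences of -1.65 (base 5494) and 0.29 (base 2614). No Cd44 probe was called in LCM or FACS, and the direction of the gene as a whole was therefore not settled by these probes.

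**Figure D2:**
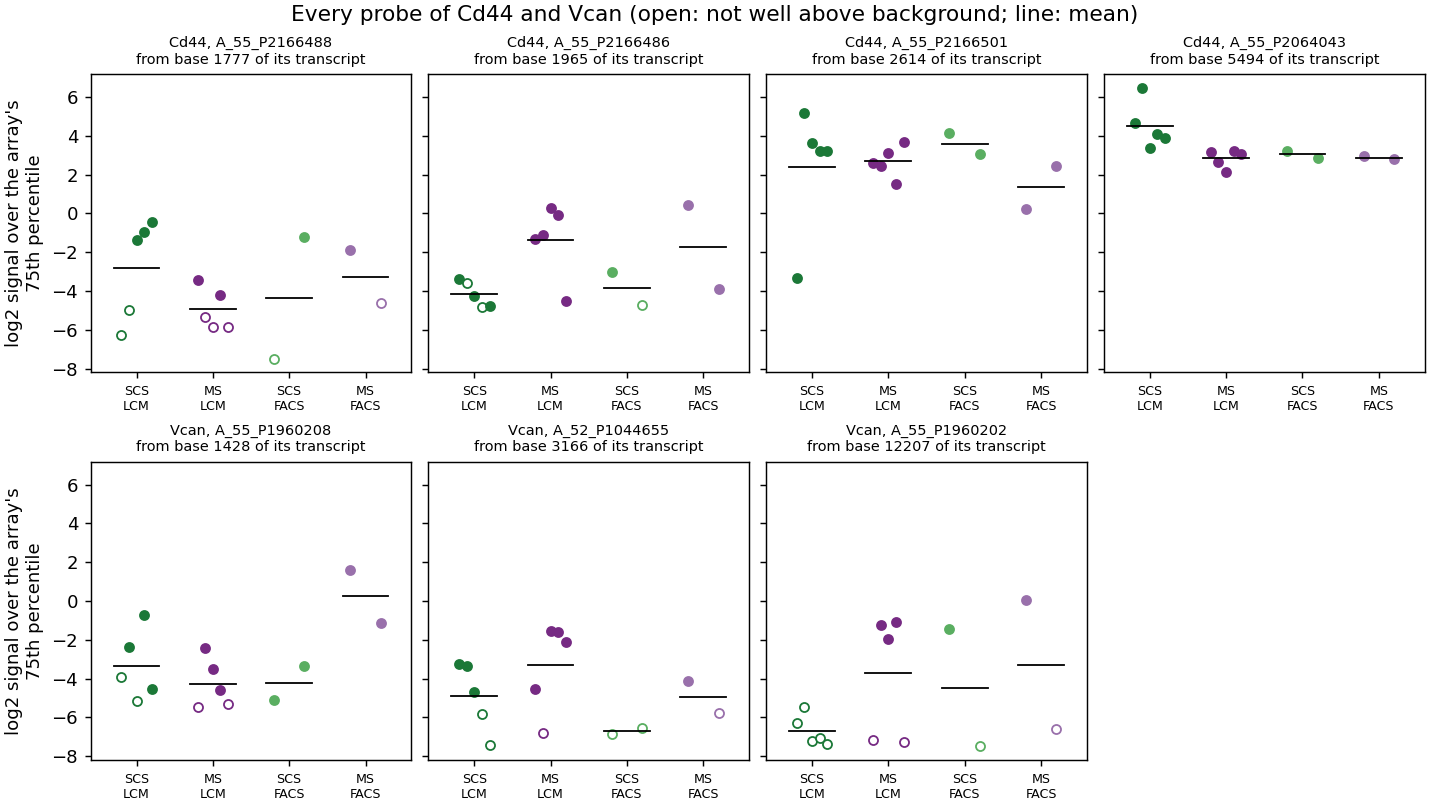
Log2 signal over the array's 75th percentile (vertical axis, shared) for each of the 4 Cd44 probes and 3 Vcan probes, ordered by their start in the transcript, with 1 point per array, a line at each group mean and open points for values not well above background. In LCM the Cd44 probe from base 5494 is higher in the subcapsular (SCS) samples, whereas the one from base 1965 has a higher mean in the medullary (MS) samples.

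The synthases were dim. Has1, which makes hyaluronan at a low rate compared with the other family members, was above background on 3 of 5 subcapsular and 4 of 5 medullary LCM arrays and on 1 of 2 and 2 of 2 FACS arrays. It ranged from -5.74 to -3.39 in subcapsular and from -4.77 to -0.64 in medullary LCM samples, with a difference of 1.53 (SE 0.93, limma adjusted p 0.55, exact permutation p 0.19). In FACS the difference was 1.29 (SE 1.19, limma adjusted p 0.454). The ranges of the 2 sinuses overlapped in both isolations.

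Has2, the synthase needed for heart development in the mouse embryo and a main source of long hyaluronan chains, was above background on 12 of 14 arrays. Its level was 0.31, -2.32, -3.68, -4.01 and -0.13 in subcapsular LCM samples. It was -1.55, -4.46, -4.15, -3.93 and -3.63 in medullary LCM samples, the second of which was not above background. The first and the fifth subcapsular samples were the highest, the rest of the 2 groups overlapped, and the difference was -1.58 (SE 0.97, 95% interval -3.72 to 0.56, limma adjusted p 0.555, exact permutation p 0.19). By FACS the levels were -3.94 and -5.89 in subcapsular samples, the second not above background, and -3.3 and -3.2 in medullary samples. The FACS difference was 1.67 (SE 0.88, limma adjusted p 0.247), and the interaction of sinus and isolation was 3.24 (SE 1.51, unadjusted limma p 0.0516, adjusted p 0.237). The opposite signs of the 2 isolations were therefore not shown to differ.

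Has3, the synthase linked to shorter hyaluronan chains, was above background on 3 of 14 arrays: 0 of 5 subcapsular and 2 of 5 medullary LCM arrays, 1 of 2 subcapsular and 0 of 2 medullary FACS arrays. Its measured values ran from -3.79 to -1.4, on medullary LCM replicates 1 and 3 and subcapsular FACS replicate 6. It was not tested.

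The hyaluronidases were patchy in LCM. Hyal1, the lysosomal enzyme that cuts hyaluronan into small fragments, was above background on 1 of 5 subcapsular LCM arrays (at -0.73) and on 2 of 5 medullary ones (at -2.71 and 1.15), too few for a test. By FACS its level was -4.6 and -7.14 in subcapsular samples, the second not above background. It was -1.81 and -0.26 in medullary samples. Both medullary values lay above both subcapsular ones, with a difference of 4.84 (SE 1.19, 95% interval 1.52 to 8.15), an unadjusted limma p of 0.0156 and an adjusted p of 0.111.

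Hyal2, a hyaluronidase anchored at the cell surface that makes the first cuts in long chains, had the most uneven LCM values of the set within 1 sinus. Its level was -2.16, 4.03, -5.43, -4.83 and 2.39 in subcapsular LCM samples, of which the third and the fourth were not above background. It was 1.08, 0.64, -0.9, 0.48 and -0.26 in medullary LCM samples. The subcapsular samples thus lay on either side of the medullary ones, with an SD of 4.25 against 0.79, and the difference was 1.41 (SE 1.71, limma adjusted p 0.791, exact permutation p 0.5). By FACS Hyal2 was -4.11 and -4.74 in subcapsular samples and -5.58 and -5.09 in medullary samples, neither of the latter above background. Between group means the medullary level was at least 1.11-fold lower, a bound set by the dimmest probes called above background (limma adjusted p 0.331). Those dimmest signals were -4.63 and -4.51 on the medullary arrays, so no lower level is shown against the second subcapsular sample. With normexp background correction the difference was 0.42.

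Vcan, a large proteoglycan whose head domain binds hyaluronan, had the largest interaction of sinus and isolation among the 7 genes tested for it. In subcapsular LCM samples its level was -3.91, -2.39, -5.14, -0.75 and -4.54, of which the first and the third were not above background. In medullary LCM samples it was -5.49, -2.45, -3.49, -4.57 and -5.33, of which the first and the fifth were not. These groups overlapped almost fully. By FACS it was -5.1 and -3.33 in subcapsular samples and 1.62 and -1.15 in medullary samples, so both medullary FACS samples were above both subcapsular ones.

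The Vcan difference was -0.92 in LCM (SE 0.93, 95% interval -2.97 to 1.14, limma adjusted p 0.75, exact permutation p 0.373). In FACS it was 4.45 (SE 1.29, 95% interval 0.85 to 8.05, unadjusted limma p 0.0265, adjusted p 0.13). The interaction of sinus and isolation was 5.37 (SE 1.61, 95% interval 1.89 to 8.84, unadjusted limma p 0.00539, adjusted p 0.103). The FACS difference was called when all 14 arrays shared 1 fit (limma adjusted p 0.0318), but that fit called 16.2% of all 27639 genes. Without medullary FACS replicate 7 the interaction was 6.75. That last fit has 1 medullary FACS array, which is assumed to vary like the other groups.

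The other Vcan probes did not follow the first. In LCM the probe from base 3166 was -3.23, -3.37, -4.7, -5.83 and -7.41 in subcapsular samples and -4.53, -6.83, -1.53, -1.61 and -2.13 in medullary ones, with a difference of 1.59 (SE 1.19, limma adjusted p 0.644). The probe from base 12207 was above background on 0 of 5 subcapsular and 3 of 5 medullary LCM arrays, where the 3 measured values were -1.22, -1.97 and -1.08 (limma unadjusted p 0.0485, adjusted p 0.424). Both thus had higher LCM means in the medullary sinus, where the first probe did not. Their interactions were 0.16 (SE 1.79) and -1.77 (SE 2.99), against 5.37 for the first probe.

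Of the 6 genes tested in FACS, 4 (Has2, Hyal1, Hyal2 and Vcan) did not overlap between the sinuses, against 69.6% of all genes tested, so that count was close to the background. Values not above background were counted as read. The median FACS difference of all genes was 0.73 and that of the 6 was 1.48, while in LCM the medians were 0.08 and -0.76. The cell type markers were mixed in FACS, and 0 were called in the 3 lists given here (limma, with 7, 2 and 5 at an unadjusted p under 0.05). The summed level of the lymphatic markers was 19.7 to 45.7 in the subcapsular and 3.22 to 8.41 in the medullary samples, with 7 of 12 tested lower (Pecam1 -8.22) and 5 higher (Pdpn 4.33, Prox1 1.94). That of the blood endothelial markers was 81.7 to 229 and 4.72 to 53.3, yet 5 of 9 were higher in the medullary samples, and Glycam1, at -5.55, was among the 4 lower. That of the macrophage markers was 378 to 379 and 582 to 615, yet 9 of 14 were lower (Timd4 -5.55, Siglec1 -4.02), and Itgam was 0.91 higher. The brightest subcapsular marker of each list weighed most in its subcapsular sum. These were Pecam1 (log2 means 4.62 subcapsular and -3.6 medullary), Glycam1 (6.86 and 1.3) and Itgam (8.05 and 8.96). The part of the cell type markers in the Hyal1 and Vcan differences was not tested.

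**Figure D3:**
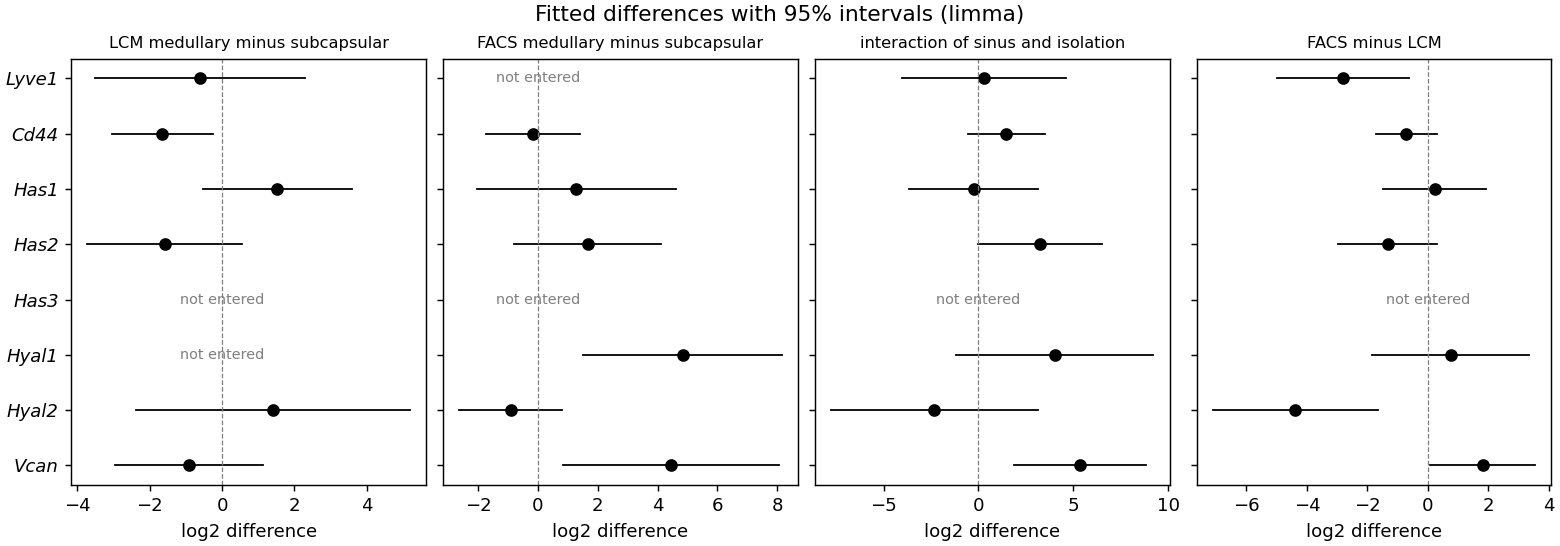
Fitted differences (horizontal axes, log2, scaled for each panel) with 95% intervals from limma for the medullary minus subcapsular comparison in LCM and in FACS, the interaction of sinus and isolation, and FACS minus LCM. The LCM interval of Cd44 (-3.03 to -0.26) and the FACS intervals of Hyal1 and Vcan do not reach 0, yet none of the adjusted p-values passed the threshold.

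Across isolations, 7 of the 8 genes entered and none was called in either contrast. For the interaction 1 of 7, Vcan, had an unadjusted limma p under 0.05, against 21.3% of all 29657 genes, of which 1.29% were called. For FACS minus LCM 3 of 7, Lyve1, Hyal2 and Vcan, had one, against 16.1% of all genes, with 3.86% called. The isolations also differ in slide, digestion, nodes and cell number, which cannot be told apart from the method. Cell type markers were mostly lower in FACS: 14 of 15 macrophage, 10 of 13 lymphatic and 8 of 10 blood endothelial markers tested. So were 7 of 9 fibroblastic reticular and mural cell markers and 6 of 10 lymphocyte markers, against 12662 of 29657 genes. In that order 3, 2, 1, 4 and 1 markers were called lower (limma). Their part in the Lyve1, Hyal2 and Vcan differences was not tested.

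Hyal2 had the largest of these differences among the 7. It averaged -1.2 ± 4.25 and 0.21 ± 0.79 in subcapsular and medullary LCM samples and -4.42 ± 0.45 and -5.33 ± 0.35 by FACS, and all 4 FACS values lay below all 5 medullary LCM values. The difference of FACS minus LCM was -4.38 (SE 1.26, 95% interval -7.11 to -1.65, limma adjusted p 0.0813), with 2 of the 4 FACS values only bounds. It was called with quantile normalization (limma adjusted p 0.0382), with the authors' deposited log2 table (0.0373), and without subcapsular LCM replicate 3 (0.0382) or 4 (0.0492), the 2 arrays on which Hyal2 was not above background. Of the 11 settings that left out no array, 9 did not call it. Over these 11 the Hyal2 difference of FACS minus LCM ran from -4.89 to -2.49, with limma adjusted p up to 0.517. The same difference for Lyve1 was -2.81 (SE 1, 95% interval -4.98 to -0.64, unadjusted limma p 0.0153, adjusted p 0.168), with 3 of the 4 FACS values not above background. Vcan was 1.82 higher (SE 0.8, unadjusted limma p 0.0418, adjusted p 0.287).

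The wider hyaluronan pathway was described through 52 other genes, all on the array. In LCM 45 entered, of which the medullary sinus had 23 higher and 22 lower, with a median difference of 0.01, and 1 was called. In FACS 43 entered, 21 higher and 22 lower, with a median of -0.44, and 0 were called. At an unadjusted limma p under 0.05 were 12 of them (27.9%), against 31.9% of all genes. Of all 27639 genes tested in FACS 16444 were higher, with a median of 0.73. The FACS medians differed by role: receptors and binding proteins had a median of 1.49 with 16 of 19 higher, while precursor synthesis had -1.98 with 6 of 7 lower, linkers and sheddases of CD44 had -1.74 with 5 of 6 lower, and breakdown enzymes had -2.25 with 4 of 6 lower. No gene of these roles was called in FACS.

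The called gene in LCM was Itih3, which encodes an inter-alpha-trypsin inhibitor heavy chain, a kind of protein that is attached covalently to hyaluronan. It was above background on 5 of 5 medullary arrays, at 1.2 ± 0.82 (SD, n = 5), and on 0 of 5 subcapsular and 0 of 4 FACS arrays. Between group means it was at least 68.3-fold higher in the medullary LCM samples (limma adjusted p 0.00385). That bound holds for the background handling used here and carries no sampling error. With normexp background correction the fitted log2 difference was only 3.38 (limma adjusted p 0.03). The interaction of Itih3 (limma adjusted p 0.00841) and its difference between isolations (limma adjusted p 0.000105) were called too, with sizes that are not given because the FACS values are only bounds. With the replicate number as a block, neither the LCM difference (limma adjusted p 0.162) nor the interaction (0.098) was called. The interaction was not called with normexp background correction (0.0507), with the slide as a block (0.0571), or without subcapsular FACS replicate 6 (0.0513) or 7 (0.111), which leaves 1 array in that group. Beside it, the summed level of 10 blood endothelial markers was 43.3 to 188 in subcapsular and 222 to 371 in medullary LCM samples, with 9 of 10 higher and 3 called. Their part in the Itih3 difference was not tested.

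Itih5, of the same family, was 0.43 ± 1.08 in medullary LCM samples, all 5 above background, and -5.55 ± 2.32 in subcapsular ones, of which 1 was (difference 5.98, SE 1.06, limma adjusted p 0.0608). The size rests on subcapsular values that are mostly bounds. Itih5 was called with the percentile over always-detected probes (limma adjusted p 0.0355), with the stricter filter (0.0336) and without subcapsular LCM replicate 5 (0.00809). Of the 13 settings that left out no array, 11 did not call it, with limma adjusted p up to 0.212. With normexp background correction the difference was 2.44 (limma adjusted p 0.13). Hapln3, a link protein that ties proteoglycans to hyaluronan, was above background on all 14 arrays. Its difference was 1.88 in LCM (SE 0.51, limma adjusted p 0.218) and 2.12 in FACS (SE 0.66, limma adjusted p 0.138). The groups did not overlap in either, as for 3.09% of all genes tested in LCM and 69.6% in FACS. Neither Hapln3 difference passed the threshold as fitted. The LCM one was called with the percentile over always-detected probes (2.61, limma adjusted p 0.0226) and was 0.69 with the mean of all its probes (limma adjusted p 0.692). That percentile moved the median LCM difference of all genes from 0.08 to 0.81, and 229 genes were called, against 48.

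The 3 pathway genes with the lowest p-values in FACS were Ezr, Itih4 and Hyal6. Ezr encodes ezrin, which links the tail of CD44 to actin, and its level was 2.42 ± 0.64 in subcapsular and -2.89 ± 0.77 in medullary FACS samples (n = 2 each). The difference was -5.31 (SE 0.74, limma adjusted p 0.0694), and the interaction was -6.87 (SE 1.65, limma adjusted p 0.0593). Itih4 was 3.46 higher in the medullary samples (SE 0.6, limma adjusted p 0.0821), and Hyal6, a hyaluronidase family member, was 4.37 higher (SE 0.97, limma adjusted p 0.102). Pgm3, an enzyme of the sugar precursor pathway, had the third lowest p of the interaction (-6.96, SE 1.86, limma adjusted p 0.077). None of these passed the threshold as fitted.

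**Figure D4:**
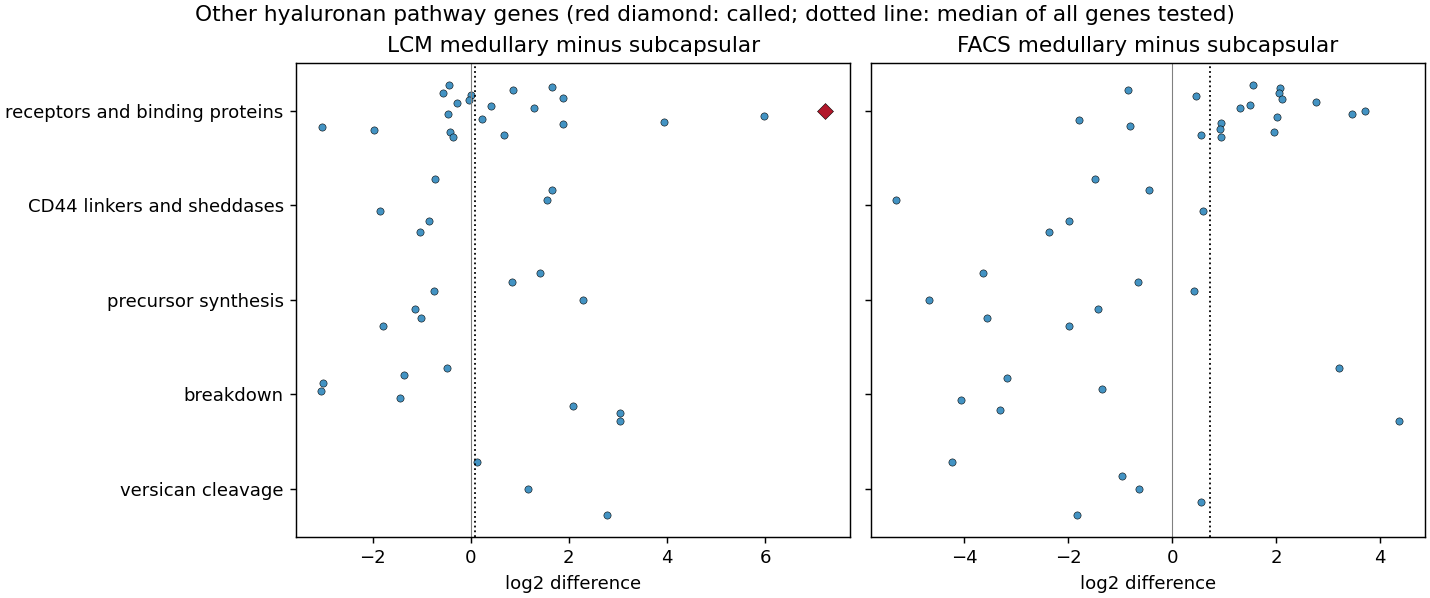
Medullary minus subcapsular log2 difference (horizontal axis) of each tested gene among the 52 other pathway genes, by role (rows; vertical spread within a row is for display), in LCM with 45 genes and FACS with 43. The red diamond is Itih3, the 1 gene called, drawn at its fitted value, and dotted lines mark the median of all genes tested, 0.08 and 0.73.

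Between isolations 22 of 47 pathway genes were higher and 25 lower in FACS, and 1 was called in each direction. Itih3 fell, as given above. Adam17, a sheddase that can release the outer part of CD44, rose (limma adjusted p 0.0413). Its level was -2.01 ± 1.58 and -2.45 ± 0.35 in subcapsular and medullary FACS samples, all 4 above background, against -4.74 ± 2.3 in medullary LCM samples, 3 of 5 above it, and 0 of 5 subcapsular LCM samples above it. The Adam17 call did not hold when any 1 of 12 arrays was left out, with adjusted p-values of 0.058 to 0.236, nor under 7 of 11 other settings (0.0581 to 0.536). Cemip2, a cell surface protein linked to hyaluronan breakdown, had the third lowest p, at -2.44 (SE 0.67, limma adjusted p 0.0687).

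The genes whose values followed a gene of the set most closely over the 14 arrays are given as a description, among 22295 genes above background on at least 10 arrays. The arrays share isolation, slide and array quality, and Lyve1, Has3 and Hyal1 were not bright enough to be compared. Cd44 was closest to H2-Eb2, an MHC class II gene (Pearson r 0.926, Spearman rho 0.771), and Marco, a macrophage scavenger receptor (r 0.905, rho 0.754), and without the 2 arrays farthest from the Cd44 median r was 0.748 and 0.775. The other such feature for Cd44 has no gene symbol. Vcan was closest to BC106175 (r 0.94, rho 0.749), Krtap5-3 (r 0.923) and Gm4553 (r 0.872). Has1 was closest to Ebf4 (r 0.927, rho 0.895) and Gm10415 (r 0.908), and Has2 to D5Ertd615e (r 0.86, rho 0.789), 4930415C11Rik (r 0.848) and 4930505N22Rik (r 0.841). For Hyal2 the named genes were Denn2b (r 0.826, rho 0.886) and Myzap (r 0.807, rho 0.815).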

How the data were processed

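Scanner files of 14 arrays and a table of log2 values were deposited. Per the file headers, Agilent Feature Extraction 10.7.3.1 made the background-adjusted spot intensity, with no scaling between arrays. How the authors made the log2 table is not given in the sources used here. It has the same median, 5.43, on each array and served as an alternative only. No sequencing depth applies to arrays, and their number limits the precision.

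Intensities were log2 transformed and set against each array's 75th percentile, taken over non-control probes. Spots marked as outliers were left out and repeated spots averaged. The 8 genes were found by the name in the files, and other genes took a current symbol from the RefSeq table of GRCm38.p6 where an accession or symbol matched (of 55681 probes, 27235 by accession, 3581 by current and 565 by older symbol, while 24300 kept the name in the files). A gene was represented by its brightest probe. It entered LCM with at least 3 of 5 arrays of a sinus well above background, FACS with both arrays of a sinus, and the fits over 14 arrays with either.

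Groups came from the sample titles and cell type labels. Differences came from lmFit and eBayes of limma 3.58.1, run in R 4.3.3 (array weights by isolation in the fits over 14 arrays), with Benjamini-Hochberg adjustment over all genes tested, and single LCM differences with a two-sided exact permutation test. The fits were tested on simulated data. A lower bound sets the bright group's mean against, on each dim array, the higher of the dimmest signal called above background and the probe's own.

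The genes and lists were chosen with earlier results of these data known. Genes named from the pathway list are those called and the 3 with the lowest p in each comparison. Genes like a member are the 3 with the highest Pearson correlation. Alternatives were other background corrections, scalings, filters, probes, eBayes settings, blocks (slide, row, replicate number), the fit over 14 arrays, no array weights and leaving out each array.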

Additional observations from a re-analysis of the deposited data

Results flagged for a closer look

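For Has2 in the medullary LCM samples, replicate 1 stood far from the other 4, at -1.55 against -4.46 to -3.63, with a gap to the nearest sample of 0.716 of the range of the group. This was the 1 such case among 16 groups of 5 values checked, and chance marks about 1 group in 20.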

How the results depend on the processing

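Of 591 alternative values for the 8 genes, 547 kept direction and side of the threshold, 38 changed direction and 6 passed it. The cause was not tested. In LCM, Lyve1 became 0.12 with the percentile over always-detected probes and 0.06 with the row block (-1.34 to 0.04 leaving out 1 array). Vcan became 1.21 with the mean of its probes and 1.59 and 2.95 on its other probes, and Cd44 2.82 and 0.29 on other probes. In FACS, Hyal2 became 0.42 with normexp. Cd44 became 0.13 with quantile normalization, 0.13 with the deposited table, 0.21 with the mean of its probes and 2.15 on another probe (-0.35 to 0.02 leaving out 1 array). In the interaction, normexp gave 0.42 for Has1 and 0.12 for Hyal2, and the other percentile -0.33 for Lyve1. Other probes gave -1.77 for Vcan and -0.67 and -2.54 for Cd44. Leaving out 1 array gave -0.84 to 1.43 for Lyve1 and -1.49 to 1.01 for Has1. In FACS minus LCM, normexp gave -0.17 for Has1 and -0.07 for Hyal1, quantile normalization -0.34 and the deposited table -0.33 for Has1 (-0.41 to 0.84 leaving out 1 array). Other probes gave -1.71 for Vcan and 0.06 for Cd44. The number of the 8 genes called rose from 0 to 1 in FACS with all 14 arrays in 1 fit (Vcan), in FACS minus LCM with quantile normalization (1) and the deposited table (1) (Hyal2), and was 0 to 1 leaving out 1 array in the interaction and in FACS minus LCM. Of 264 values for the pathway genes named, 222 kept direction and side of the threshold, 17 passed it and 25 no longer did, and 0 changed direction. Where 1 FACS array of a sinus was left out, the lone sample is assumed to vary like the other groups.

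Over all genes, the LCM calls were 48, against 8 with normexp, 15 with quantile normalization, 16 with the deposited table, 229 with the other percentile, 104 with the stricter filter, 127 with the slide block, 248 on slide 1 alone, 14 with the row block and 23 to 104 leaving out 1 array. The FACS calls were 0, against 4485 with all 14 arrays in 1 fit and 1800 with trend and robust eBayes. The interaction calls were 383, against 46 with the slide block, 1151 with quantile normalization and 11 to 1270 leaving out 1 array. The calls of FACS minus LCM were 1145, against 186 with the slide block and 618 to 1664 leaving out 1 array. The other percentile moved the median LCM difference of all genes from 0.08 to 0.81.

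The titles share replicate numbers across sinuses. Deviations of same-numbered samples correlated at -0.023 to 0.018, so no pairing by number was seen. Replicates 6 and 7 give the same value by construction, with 2 samples in each group. Such low correlations over all genes cannot exclude that same-numbered samples share an animal. With the replicate block, 0 of the 8 genes were called in LCM, 0 in FACS and 0 in the interaction, and calls over all genes went from 48 to 0 in LCM and from 383 to 0 in the interaction. Itih3 then had a limma adjusted p of 0.162 in LCM and 0.098 in the interaction. No paired analysis was possible for FACS minus LCM because the isolations share no number.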

Other observations

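The number of the 8 genes well above background varied between arrays of the same group. It was 3, 6, 4, 4 and 6 on the subcapsular LCM arrays and 7, 5, 5, 6 and 5 on the medullary LCM arrays. Subcapsular FACS replicate 6 showed all 8 above background and replicate 7 showed 3, while both medullary FACS arrays showed 5. Over all genes, arrays of a group correlated at 0.69 to 0.772 in subcapsular LCM, 0.754 to 0.822 in medullary LCM, 0.862 in subcapsular FACS and 0.744 in medullary FACS samples.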
